A study of Xenopus laevis with 4 samples.

Results

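Keratin, dlx, tfap2, grhl and tp63 genes were examined in stage 10.5 embryos of the frog Xenopus laevis in which the transcripts of the TATA-binding protein (TBP) and its 2 relatives had been targeted for knockdown. Members were picked by gene symbol alone, but this set of symbols was chosen with earlier results of these data known. The symbol had to start with krt, dlx or grhl followed by a number, or with tfap2, or be tp63. This gave 55 of the 45098 genes of the deposited table, namely 33 keratins, 10 dlx, 6 tfap2, 4 grhl and 2 tp63 entries. X. laevis is an allotetraploid, so most symbols occur as an L and an S homeolog from its 2 subgenomes. tfap2a, tfap2c and grhl1 were not matched by symbol and were not analysed here.

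The study asked which embryonic genes are still transcribed when the whole TBP family is depleted. In the TKD (triple knockdown) group, embryos at the 1-cell stage received a mixture of antisense DNA oligonucleotides against the tbp, tbp2 and tlf transcripts. In the control group the embryos were injected with water, so the comparison carries no control oligonucleotide. Each group has 2 samples, each of 10 whole embryos taken at stage 10.5 and sequenced after removal of ribosomal RNA. The paper reports that development of the TKD embryos stopped and that gastrulation did not begin in them. The groups therefore differed in developmental progress as well as in what was injected. Lower reads in TKD were not separated from this arrest. Whether the 2 samples of a group stem from different clutches is not stated, and p-values therefore reflect only how far these samples differ, which may be technical.

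The 3 oligonucleotides are shown because they define the TKD group. Each carries dimethyl-ethylene-diamine (DMED) groups at both ends, which protect the DNA in the embryo, and a central stretch without them, where RNase H can cut the paired transcript. The central bases are in capitals, and the modified flanks are in lower case.
TBPAS3: tgcatTTCGCGCTctaag
TBP2-AS167: tcatcGTATGGAgtcat
TLF-AS93: atatcCAGTGCCacatc

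Keratins are intermediate filament proteins that polymerize as pairs of 1 type I and 1 type II chain, and they make up the cytoskeleton of epithelial cells. In the frog gastrula, BMP signals on the ventral side turn ectoderm into epidermis, and the Dlx, AP-2 and Grainyhead-like (Grhl) transcription factors act between these signals and the epidermal genes. Tumour protein p63 is a regulator of the basal layer of stratified epidermis. The embryos were not dissected, so the epidermal identity of these genes rests on their names, and fewer cells of a type cannot be told apart from less RNA per cell.

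The authors' table holds 1 mean per group, in normalized reads (counts scaled by a size factor for each library). Because counts are whole numbers, each mean could be solved for the reads of its 2 libraries. Since the columns carry no sample number, the libraries are called the deeper and the shallower of their group. They held 2523060 and 1414476 recovered reads in TKD, against 5222085 and 3436848 in control. Of all genes, 17026 had at least 10 reads in at least 2 libraries and were tested with limma-voom, with Benjamini-Hochberg adjustment over all of them and a threshold of 0.1. Of these, 14.3% were lower and 10.3% higher in TKD, and their median log2 fold change was 0.04. The targeted tbp.S had 32.9 and 19.8 normalized reads in TKD embryos, against 57.8 and 87.7 in the control libraries (log2 fold change −1.32 ± 0.47 (SE), limma-voom adjusted p = 0.0943). This call was lost with library totals (adjusted p = 0.123), with no filter on low reads (0.101), without the deeper or the shallower TKD library (0.139 and 0.259) and without the shallower control library (0.172). tbp.L did not pass the threshold (adjusted p = 0.638), and tbpl2.L, the gene of TBP2, had at most 13 reads in any library and was not tested. Reads of the tlf gene were not examined here. The paper reports loss of TBP protein by western blot, and of tbp2 and tlf transcripts by RT-qPCR, in TKD embryos.

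The members that could be tested were lower in TKD embryos or did not pass the test, and none was called higher. Of the 55 genes, 20 had no read in any library, 16 had reads but fell below the minimum, and 19 were tested. Of the 19, 13 were lower in TKD (limma-voom), against the 14.3% of all genes, and 0 were higher, against 10.3%. An unadjusted limma-voom p under 0.05 was found for 14, none of them higher, beside 5430 of all 17026 genes tested. Limma on log2 normalized reads likewise called 13 lower and 0 higher, against 14.5% of all genes lower in that fit. In 15 of the 19, neither TKD library reached the level of either control library, which held for 30.7% of all genes tested, and in the other 4 the groups overlapped. The median log2 fold change of the 19 was −1.37, also with dlx3.L, which had no read in TKD, set at its bound, and their values ran from −6.21 for krt12.S to 0.26 for krt8.2.S.

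These counts depend on which genes could be tested. For 7 of the 19 (krt12.S, krt5.1-like.2.L, krt8.2.S, dlx3.L, dlx3.S, dlx6.L and grhl2.L) the minimum was not met in both TKD libraries, so they were tested through their control reads, and the counts over the 19 are a description. Of the 12 members with at least 10 reads in each TKD library, 9 were lower and 0 higher. Of the 14098 genes of that kind, 1981 (14.1%) were lower and 1747 higher. Without the shallower TKD library 8 members passed instead of 13. The 5 that then failed were grhl2.L, dlx5.S, grhl3.L, krt18.L and krt18.S, whereas krt5.7.L, krt5.7.S, krt8.L, krt8.S, krt12.S, dlx3.L, dlx3.S and grhl3.1 passed under every alternative in which they were tested.

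**Figure D1:**
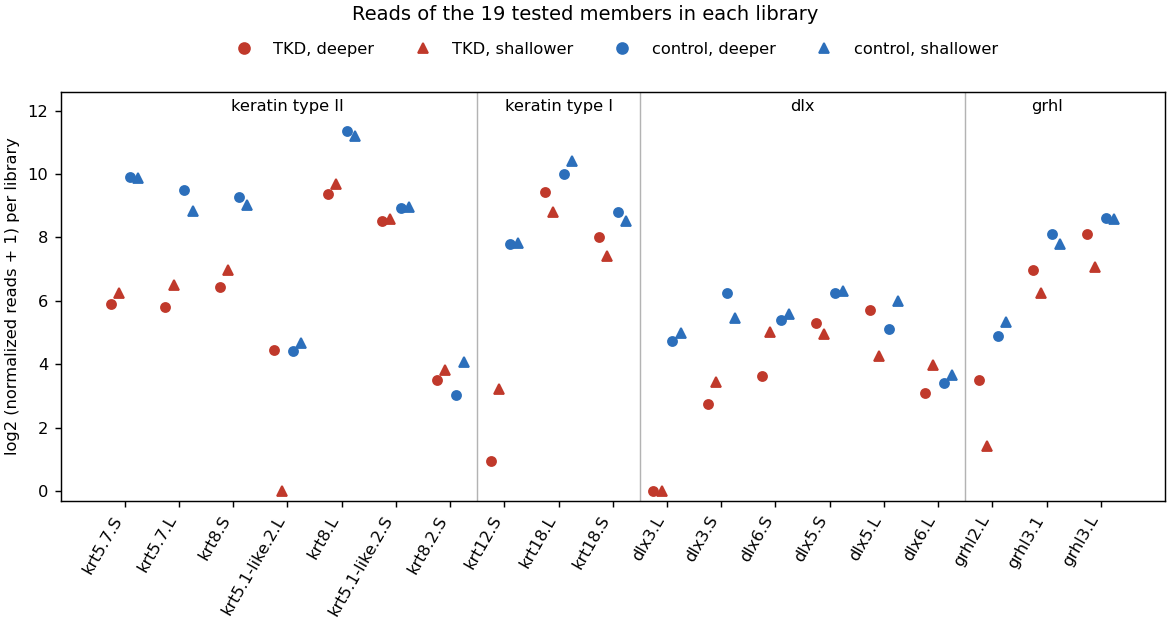
Normalized reads of the 19 tested members in each library, as log2 of the value plus 1, grouped by family; red marks TKD and blue marks control libraries, circles the deeper and triangles the shallower library of a group. The red symbols lie below both blue symbols for 15 members, dlx3.L sits at 0 in both TKD libraries, and the groups overlap for krt5.1-like.2.L, krt8.2.S, dlx5.L and dlx6.L.

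Among the type II keratins, the krt5.7 homeologs were reduced most. The RefSeq gene annotation lists krt5.7.L as krt7.L, while krt5.7.S was not matched there. krt5.7.S had 58.3 and 74.4 normalized reads in the deeper and shallower TKD libraries, against 961 and 930.1 in the deeper and shallower control libraries. krt5.7.L had 55.5 and 89.3 in TKD, against 729 and 456 in control. No TKD library came near a control library for either homeolog, and their summed reads in TKD were 9.02% of those in control. The log2 fold change was −3.87 ± 0.27 (SE) for krt5.7.S (limma-voom adjusted p = 0.00254) and −3.10 ± 0.38 for krt5.7.L (adjusted p = 0.00391).

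krt8 encodes the type II keratin of simple epithelia, which is already made in early embryos. krt8.L had 665 and 817 normalized reads in TKD embryos, against 2628 and 2357 in the control libraries. krt8.S had 86.5 and 124 in TKD, against 624 and 518 in control. Both homeologs were lower in TKD with no overlap, krt8.S with a log2 fold change of −2.50 ± 0.27 (adjusted p = 0.0031) and krt8.L with −1.76 ± 0.20 (adjusted p = 0.00322). Together they were left at 27.6% of the control reads.

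The other type II keratins that could be tested did not pass. krt5.1-like.2.S had 366 and 385 normalized reads in TKD, against 488 and 492 in control. Both TKD libraries were below both control libraries, but the difference was small (log2 fold change −0.39, 95% confidence interval −0.82 to 0.05, limma-voom adjusted p = 0.201). Its L homeolog had 20.7 normalized reads in the deeper and 0 in the shallower TKD library, against 20.3 and 24.3 in control, so that 1 library set its fitted value of −1.91 (interval −4.65 to 0.84): it was −4.75 (adjusted p = 0.0107) without the deeper and −0.07 (adjusted p = 0.957) without the shallower TKD library. krt8.2.S, a second krt8 gene, had 10.3 and 13.2 in TKD, against 7.1 and 15.7 in control, and the groups overlapped.

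The type I keratin krt12.S had few reads left in TKD. Frog krt12 genes include classical epidermal keratin markers, and the RefSeq annotation (assembly Xenopus_laevis_v10.1) lists krt12.S as krt12.5.S. It was counted in 1 and 5 reads in the deeper and shallower TKD libraries, against 436 and 287 reads in the control libraries, or 0.94 and 8.27 normalized reads against 221 and 225. Pooled over the libraries it was 61.9-fold lower in TKD, with a 95% interval of 28.3 to 169 that covers counting error only. It was tested through its control reads, with a fitted log2 fold change of −6.21 ± 0.95 (limma-voom adjusted p = 0.0071) that was −4.62 without the deeper and −7.31 without the shallower TKD library. krt12.L, its homeolog by symbol only, was not matched in that annotation. It had no read in TKD, against 14 and 9 reads in the control libraries, and was below the minimum. Against a floor of 3 reads over the TKD group, with the control reads taken as exact, it was at least 3.94-fold lower in TKD.

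krt18 encodes the type I partner of krt8. krt18.L had 698 and 448 normalized reads in TKD, against 1026 and 1364 in control (log2 fold change −1.06 ± 0.26, adjusted p = 0.0331). krt18.S had 259 and 169 in TKD, against 442 and 369 in control (−0.91 ± 0.26, adjusted p = 0.0509). Both were lower in TKD without overlap, and the shallower TKD library was the lowest for each; without it their adjusted p rose past the threshold, to 0.11 for krt18.L and 0.184 for krt18.S. In the RefSeq annotation krt18.S and krt8.S lie next to each other, with 0 genes between them.

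krt8 and krt18 did not shift alike in the 2 TKD libraries. The summed krt8 homeologs had 751 and 941 normalized reads in the deeper and shallower TKD libraries, against 3253 and 2874 in control. The summed krt18 homeologs had 956 and 617 in TKD, against 1468 and 1733 in control. The ratio of krt8 to krt18 reads was therefore 0.786 and 1.53 in TKD, against 2.22 and 1.66 in control. Every TKD value was below every control value, but the TKD libraries differed from each other by more than the control libraries did, and the ratio was not tested. Over all type II and type I keratins the ratios were 1.32 and 2.40 in TKD, against 3.22 and 2.44 in control. Since this is a ratio between different genes, only its change between groups can be read.

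**Figure D2:**
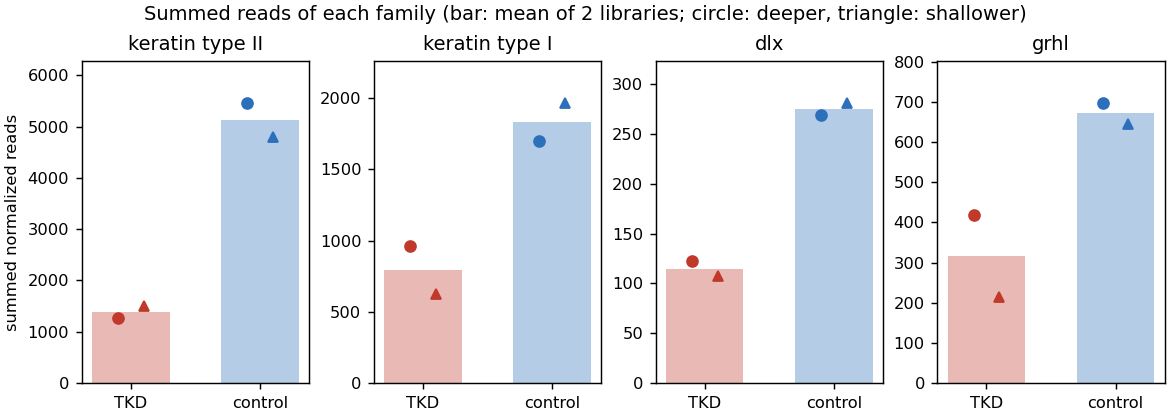
Summed normalized reads of the type II keratins, type I keratins, dlx and grhl genes in TKD (red, left) and control (blue, right); bars are means of 2 libraries, circles the deeper and triangles the shallower library, and the y axes differ between panels. In each panel both TKD libraries lie below both control libraries, at 27.0%, 43.3%, 41.8% and 47.1% of the control mean.

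Summed over all 33 entries, keratin reads were 2223 and 2128 in TKD embryos, against 7158 and 6761 in the control libraries. TKD thus held 31.3% of the control level, and most of the lost reads belonged to krt8.L and krt5.7. Of the 33, 16 had no read, 7 were below the minimum and 10 were tested. Of these 10, 7 were lower, against 14.3% of all genes, among them krt12.S, which was tested through its control reads. The undetected keratins included both homeologs of krt5.3, krt5.6, krt6 and krt17. A count of 0 limits them only to under 3 reads, which is 2.82 and 4.96 normalized reads in the deeper and shallower TKD libraries, against 1.52 and 2.35 in control. 2 further keratin entries of the table, krt.L and krt.S, have no number in their symbol and are not members; they are singled out here after their values were seen. krt.L had 9.40 and 11.6 normalized reads in TKD, against 150.1 and 162 in control (adjusted p = 0.00548), and krt.S had 803 and 868 in TKD, against 1776 and 1452 in control (adjusted p = 0.0182).

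Of the dlx genes, dlx3 was reduced most. Dlx3 is a homeodomain activator of ventral ectoderm that lies downstream of BMP signalling. dlx3.L had 0 reads in both TKD libraries, against 50 and 39 reads in control, or 25.4 and 30.5 normalized reads. It was at least 15.2-fold lower in TKD, taking 3 reads over the TKD group as the floor and the control reads as exact (limma-voom adjusted p = 0.0111). dlx3.S had 6 reads in each TKD library, or 5.64 and 9.92 normalized reads, against 75.6 and 43.1 in control (log2 fold change −2.98 ± 0.79, adjusted p = 0.0415). Neither homeolog overlapped between groups, but both were tested through their control reads. dlx4.L and dlx4.S, which neighbour dlx3 in the RefSeq annotation, had no read in any library.

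dlx5 and dlx6, which lie side by side in both subgenomes and are active at the border of the neural plate as well as in ventral ectoderm, gave a mixed picture. dlx5.S had 38.6 and 29.8 normalized reads in TKD, against 75.6 and 79.1 in control. It was lower in TKD (log2 fold change −1.12 ± 0.35, limma-voom adjusted p = 0.0694), although this call was kept in only 4 of 9 alternatives and was lost without either TKD library or without the deeper control library (adjusted p between 0.106 and 0.228). dlx5.L had 51.7 and 18.2 in TKD, against 34.0 and 62.6 in control, so the groups overlapped (adjusted p = 0.74). dlx6.S had 11.3 and 31.4 in TKD, against 41.1 and 47.0 in control, and missed the threshold (−1.37 ± 0.53, adjusted p = 0.118), which it passed only without the deeper control library (adjusted p = 0.0887); without the deeper TKD library its log2 fold change was −0.44. dlx6.L had 7.52 and 14.9 in TKD, against 9.63 and 11.7 in control, with a confidence interval of −1.61 to 1.5. A change of dlx6.L was not detectable at this depth. dlx2.S, the best covered of the untested dlx genes, had 8 and 1 reads in TKD, against 13 and 9 in control.

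The Grainyhead-like genes encode activators of epithelial junction and barrier genes, a role best known in mouse and fly. grhl3.1 had 124 and 74.4 normalized reads in TKD embryos, against 274 and 220.0 in the control libraries (log2 fold change −1.28 ± 0.30, limma-voom adjusted p = 0.0285). grhl3.L had 276 and 134 in TKD, against 388 and 385 in control (−0.92 ± 0.31, adjusted p = 0.0813). grhl2.L had 10.3 and 1.65 in TKD, against 28.9 and 39.1 in control (−2.44 ± 0.87, adjusted p = 0.097). All 3 were lower in TKD without overlap, and in each the shallower TKD library had the lowest value. Of all genes tested, 14.3% were lower, and 30.7% had both TKD libraries below both control libraries. grhl2.L was tested through its control reads. grhl2.L passed in only 5 of 9 alternatives and failed without the shallower TKD library (adjusted p = 0.177) and without the deeper or the shallower control library (0.124 and 0.184). grhl3.L passed in 8 of 10, and without the shallower TKD library its log2 fold change was −0.48 (adjusted p = 0.289). grhl2.S had 7 and 3 reads in TKD, against 12 and 2 in control, and was not tested. The symbol grhl3.1 does not say whether it is the S homeolog of grhl3.

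The AP-2 and p63 genes of the set were at or near 0 in both groups. AP-2 factors bind and activate epidermal keratin genes in the frog, but their tfap2b, tfap2d and tfap2e members all fell below the minimum. tfap2b.S was the best covered, with 6 and 2 reads in TKD, against 17 and 1 in control. tfap2e.L and tfap2e.S had 1 read in 1 library of each group, and the tfap2d homeologs had none. tp63.S had 3 and 0 reads in TKD, against 3 and 2 in control, and tp63.L had 0 and 1 in TKD, against none in control. A difference between the groups was not detectable at this depth for any of these 8 genes.

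**Figure D3:**
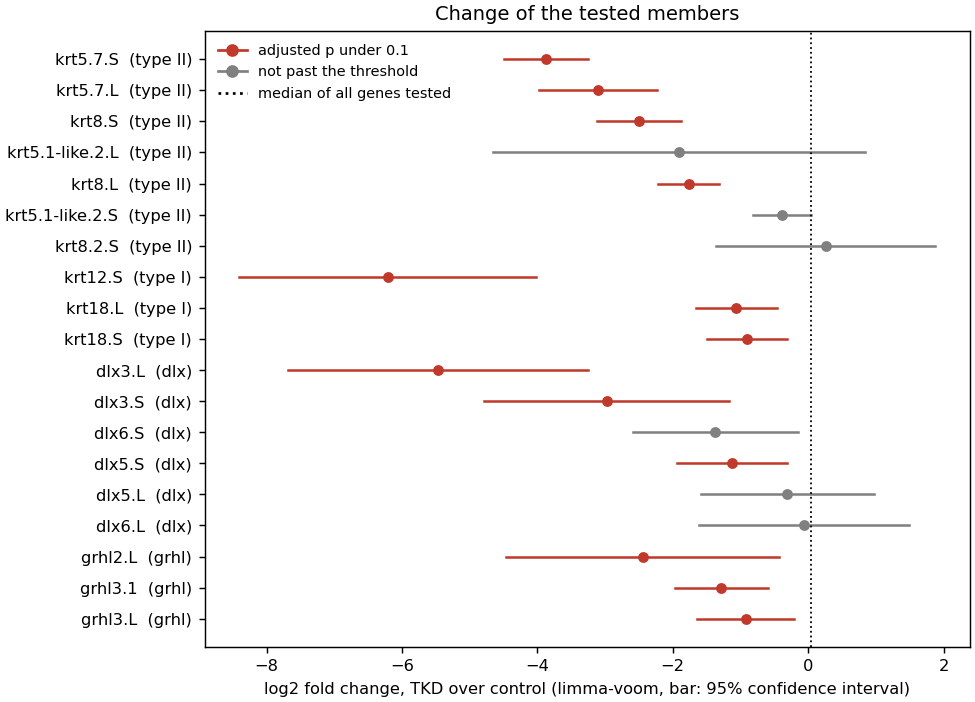
Fitted log2 fold changes of TKD over control for the 19 tested members (x axis; bars are 95% confidence intervals from limma-voom), with those past the adjusted p of 0.1 in red and the others in grey; the dotted line is the median of all genes tested, 0.04. The red points run from −6.21 for krt12.S to −0.91 for krt18.S, and the widest interval, −4.65 to 0.84, is that of krt5.1-like.2.L, whose TKD libraries had 22 and 0 reads.

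Homeologs were compared by the share of L reads among the reads of both, since the 2 copies can respond differently. The ratio of L to S was tested in 3669 pairs of all genes with limma on log2 values with a pseudocount of 0.5. Of these, 0 passed the threshold (0%), although 636, or 17.3%, had an unadjusted p under 0.05. 7 member pairs were among them, and 2 of the 7 had an unadjusted p under 0.05, dlx3 and dlx6. Both of these pairs met the read minimum only through control reads. In each TKD library dlx3.L, dlx3.S and dlx6.L had under 10 reads, so these 2 pairs are a description. Reads that match both copies could be assigned to either of them, so these shares are uncertain.

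For dlx3 the L share was 0% in both TKD libraries, against 25.1% and 41.5% in control, a change of −2.98 in the log2 ratio (limma adjusted p = 0.161) that was −0.41 with a pseudocount of 5. The TKD share rests on 0 reads of dlx3.L and 6 reads of dlx3.S in each library. For dlx6 the L share was 40% and 32.1% in TKD, from 8 and 9 reads of dlx6.L, against 19% and 20% in control, a change of 1.19 (interval 0.31 to 2.08, adjusted p = 0.206). Neither ratio passed the threshold. For krt8 the L share was 88.5% and 86.8% in TKD, against 80.8% and 82.0% in control (adjusted p = 0.336). For krt5.7 it was 48.8% and 54.5% in TKD, against 43.1% and 32.9% in control (adjusted p = 0.358). Neither of these 2 keratin ratios passed the threshold. The L share of krt18 was 73.0% and 72.7% in TKD, within the 69.9% and 78.7% of control.

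**Figure D4:**
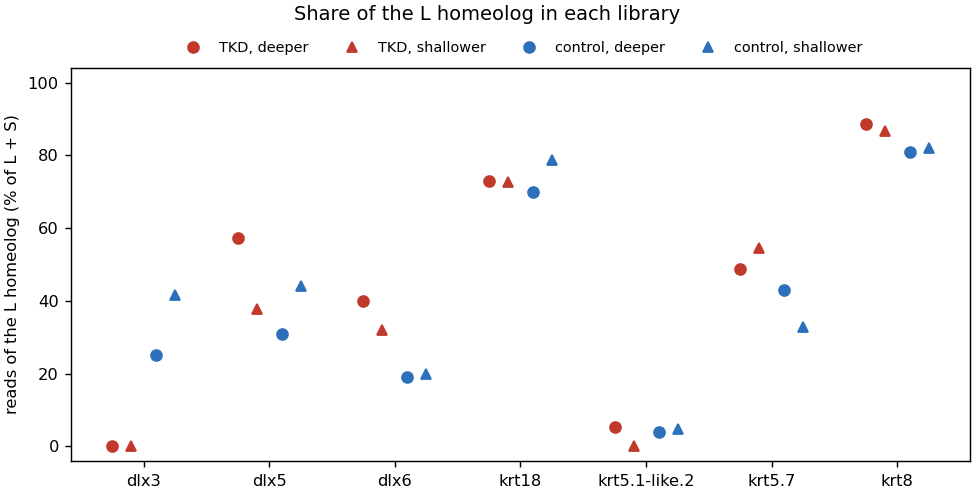
Reads of the L homeolog as a percentage of L plus S reads (y axis) for the 7 member pairs tested, in each library (red TKD, blue control; circles deeper, triangles shallower). dlx3 has an L share of 0% in both TKD libraries, where dlx3.L had 0 and dlx3.S 6 reads in each. dlx6 has 40% and 32.1% in TKD (8 and 9 reads of dlx6.L) above 19% and 20% in control, and krt18 overlaps between the groups.

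Adding up the homeologs before the fit gave 1 value per symbol. krt8, krt5.7, krt12, dlx3 and krt18 were lower as sums, with log2 fold changes of −1.87, −3.53, −6.26, −3.54 and −1.04 (limma-voom adjusted p between 0.00206 and 0.0244). The sums of dlx5 (−0.79), dlx6 (−1.02), grhl2 (−1.58), krt5.1-like.2 (−0.41) and krt8.2 (0.07) did not pass, at adjusted p of 0.119 or more. Together with grhl3.1 and grhl3.L, which have no partner in the table under the same symbol, 7 of 12 values were lower and 0 higher. Over all 13464 values tested in the same fit, 2013 were lower and 1464 higher. The krt12 and dlx3 sums stayed below 10 reads in each TKD library and were tested through their control reads.

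Genes that work beside the keratins were counted from lists, each against the 14.3% lower and 10.3% higher among all genes. Of the listed symbols, 17 of 34 were found for junctions and membranes, and 7 of 17 for other intermediate filaments and keratin-binding proteins. For regulators of non-neural ectoderm 17 of 26 were found, and for the BMP pathway 11 of 19. L and S homeologs were counted as separate genes. Of 25 tested genes of epithelial junctions and membranes, 12 had an unadjusted limma-voom p under 0.05, beside 5430 of all 17026 genes tested. By the adjusted p, 10 were lower and 0 higher, with a median log2 fold change of −0.52. They included both homeologs of dsp, which encodes the desmosomal plaque protein desmoplakin that anchors keratin filaments. dsp.S had 181 and 210.0 normalized reads in TKD, against 646 and 646 in control (−1.74 ± 0.21, adjusted p = 0.00379), and dsp.L fell by 1.91 on the log2 scale (adjusted p = 0.00498). cdh1.S, the gene of E-cadherin, had 60.2 and 76.1 in TKD, against 301 and 298 in control (−2.17, adjusted p = 0.00401). The plakophilin gene pkp3.L, another desmosomal plaque component, was lower by −1.73 (adjusted p = 0.00452). Desmosomal and adherens junction genes were both among those that fell.

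Of 8 tested genes for other intermediate filaments and keratin-binding proteins, 3 had an unadjusted limma-voom p under 0.05, beside 5430 of all 17026 genes tested. The same 3 were lower by the adjusted p and 0 were higher, with a median of −1.04. These were plec.S (−1.83, limma-voom adjusted p = 0.00369) and plec.L (−1.67, adjusted p = 0.00967), the genes of the cytolinker plectin, and fam83h.L (−1.98, adjusted p = 0.021; −1.03 and adjusted p = 0.149 without the deeper TKD library). FAM83H is known in human cells to bind keratin filaments. Their summed reads were 583 and 579 in TKD, against 1463 and 1475 in control.

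Regulators of non-neural ectoderm held calls in both directions, the higher ones both from the gene foxi2. Of 31 tested, 7 were lower and 2 higher, against 14.3% and 10.3% of all genes, with a median of −0.39. A log2 fold change below 0 was found for 22, as for 8199 of all 17026 genes tested. klf5.L, an epithelial zinc finger gene, had 28.2 and 24.8 normalized reads in TKD, against 128 and 86.1 in control (−1.97, limma-voom adjusted p = 0.0242), and bambi.L, a BMP target and decoy receptor, fell by 1.08 on the log2 scale (adjusted p = 0.0247, and 0.147 without the deeper TKD library). The homeologs klf5.S and bambi.S did not pass (log2 fold change −0.12 and 0.14, limma-voom adjusted p = 0.811 and 0.68). Both homeologs of the forkhead gene foxi2, which is provided maternally in the frog ectoderm, were higher. foxi2.L had 131 and 106 in TKD, against 34.0 and 46.2 in control (1.63, adjusted p = 0.0144), and foxi2.S had a log2 fold change of 1.06 (adjusted p = 0.0327). The foxi2.S call was lost without the deeper TKD library (adjusted p = 0.104) and without the deeper control library (0.143).

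The BMP pathway genes, which act upstream of epidermis, showed no common direction. Of 17 tested, 2 were lower and 2 higher, with a median of 0.19, and their summed reads were 2462 and 2368 in TKD, against 2058 and 1963 in control. The ligand gene bmp4.S was lower (−1.01, limma-voom adjusted p = 0.0555) and bmp2.L higher (1.34, adjusted p = 0.0338). Their homeologs bmp4.L and bmp2.S did not pass (0.008 and 0.71, adjusted p = 0.9885 and 0.106). The bmp4.S call was lost without either TKD library or without the deeper control library (adjusted p between 0.107 and 0.207), and the bmp2.L call without the deeper TKD or the deeper control library (0.149 and 0.107). The signal transducer smad1.L was higher (0.59, adjusted p = 0.0704), but not with no filter on low reads (0.106) or when any 1 library was left out (0.169 to 0.228). The second lower gene was gdf6.S, another BMP family ligand, with 0 reads in both TKD libraries, against 19 and 10 reads in control. It was tested through its control reads, and limma on log2 normalized reads did not call it (adjusted p = 0.11).

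**Figure D5:**
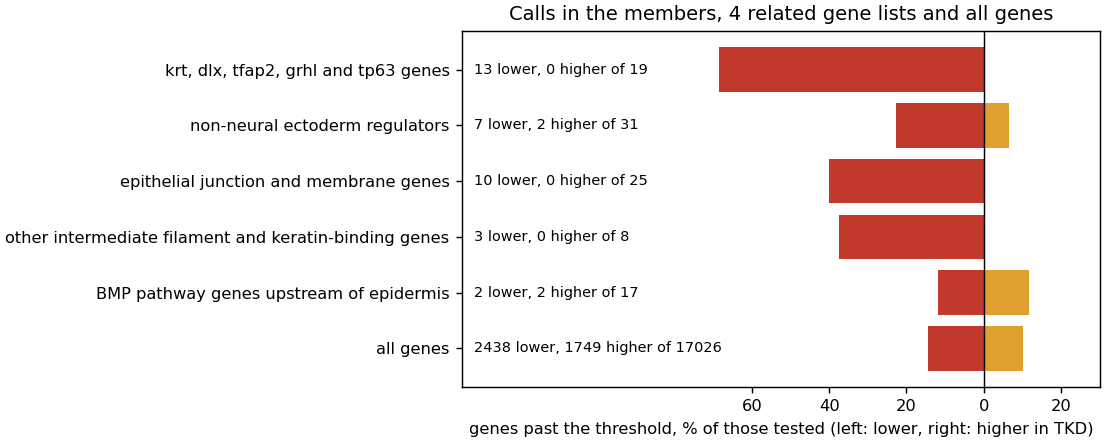
Genes past the limma-voom adjusted p of 0.1 as a percentage of those tested, lower in TKD to the left and higher to the right, for the tested members, 4 related gene lists and all genes; counts are printed beside each bar. The members have 13 lower and 0 higher of 19, the junction list 10 and 0 of 25, and the BMP list 2 and 2 of 17, beside 2438 lower and 1749 higher of the 17026 genes tested.

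Markers of other embryonic regions were counted in the same way, beside the 14.3% lower and 10.3% higher among all genes. Symbols found were 10 of 14 for neural ectoderm, 10 of 11 for the organizer and 10 of 14 for mesoderm. For endoderm 11 of 15 were found, and for maternal transcripts 8 of 11. Of 17 tested neural ectoderm markers 7 had an unadjusted limma-voom p under 0.05, beside 5430 of all 17026 genes tested. By the adjusted p 0 were lower and 3 higher, with summed reads of 4452 and 3330 in TKD, against 2485 and 3169 in control. Of 19 organizer markers 1 was lower and 11 higher, with sums of 6508 and 4852 in TKD, against 3520 and 4649 in control. In both lists the sums of the TKD libraries lay above those of control. Of 18 mesoderm markers 9 were lower and 3 higher, with sums of 1721 and 1546 in TKD, against 2281 and 2272 in control. msgn1.S, a gene of presomitic mesoderm named here because it was at 0 in both TKD libraries, was among those lower. Of 20 endoderm markers 6 were lower and 3 higher, with sums of 8628 and 6262 in TKD that overlapped the 6811 and 8684 of control.

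Of 11 maternal transcripts 9 were higher and 0 lower (the same 9 and 0 by the unadjusted p), with sums of 7389 and 7160 in TKD, against 2980 and 3215 in control. Of the 5 markers tested of multiciliated cells and ionocytes, which lie within the epidermis, 2 had an unadjusted limma-voom p under 0.05. This held for 5430 of all 17026 genes tested. By the adjusted p 1 was lower and 0 higher, with sums of 214 and 227 in TKD that fell within the 239 and 197 of control. The gene called lower was foxj1.S, a regulator of motile cilia. In foxj1.S, foxj1.L and ca12.L both TKD libraries lay under both of control, which held for 30.7% of all genes tested. ccno.L was above control in both TKD libraries, as were 5092 of the 17026 genes tested, and ccno.S overlapped. Apart from foxj1.S, none of these passed the threshold. Only 3 of the 9 symbols on this list were found. The part of the shifts in other regions, or of the developmental arrest, in the lower keratin, dlx and grhl reads was not tested.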

How the data were processed

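RNA of 2 TKD and 2 water-injected samples was sequenced as single-end reads. The authors mapped these with STAR to the X. laevis assembly JGI 9.1, allowing 1 mismatch, and compared groups with DEseq; no source used here gives the versions or how reads were counted per gene. In the deposited table, the signal value of a gene is the authors' mean, over both libraries of the group, of its size-factor-normalized counts. The table also holds the authors' log2 fold changes, p-values and adjusted p-values, which were not used.

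Each group mean was solved for the whole reads of its 2 libraries. There was 1 solution for 45094 of 45098 genes in TKD and 45088 in control, and the largest residual below a mean of 100 was 5.1e-09. Genes with 1 solution carry 94.64% of the signal in TKD and 89.23% in control, so the reads are not complete library totals.

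limma-voom was run on genes that reached 10 reads in 2 or more libraries (limma 3.58.1, R 4.3.3), with the size factors as library sizes, both groups in the fit, no covariate, 2-sided tests, Benjamini-Hochberg adjustment over 17026 genes and a threshold of 0.1, the false discovery rate of the study. The recovery of reads and both limma tests were first tested on simulated data. The interval of the pooled krt12.S fold covers counting error only. The floors cover counting error of the TKD reads only, with the control reads taken as exact. The other intervals are those of limma.

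The members, lists, markers and tests were chosen with earlier results of these data known. Reads per library are given for members past the threshold, their homeologs and members with a mean of at least 100. Other lists name at most 4 called genes, chosen by lowest adjusted p. The homeologs klf5.S, bambi.S, bmp4.L and bmp2.S were added beside them after their values were seen. Marker genes msgn1.S, foxj1, ca12.L and ccno were named after their values were seen. 36 of the 55 symbols matched RefSeq (27 by symbol, 9 by synonym), used for names and neighbours. Alternatives changed the scaling, the read minimum, the test, the threshold, the homeologs and the libraries.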

Additional observations from a re-analysis of the deposited data

How the results depend on the processing

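All 13 lower members kept their direction under each alternative that tested them, and 8 of them passed the threshold in each; 0 members were higher under any. At an adjusted p of 0.05 the number lower was 9, and the share of all genes is not given for it. At 0.1 the number lower was 10 with library totals, where 11.6% of all genes tested were lower. It was 12 of 15 with at least 50 reads, where 20.9% of all genes tested were lower. It was 13 with the other scaling, with no filter (of 35 tested) and with limma on log2 values. The share of all genes tested was 14.8%, 9.1% and 14.5% in these fits. The number lower was 7 of 12 with homeologs added up, where 2013 of all 13464 values were lower. Leaving out 1 library gave 8 to 13: 8 without the shallower TKD, 9 of 15 tested without either control library, and 13 without the deeper TKD library, where krt5.1-like.2.L passed and dlx5.S did not. The arm left with 1 library is then assumed to vary like the other. With either control library left out, krt12.S, dlx3.L, dlx3.S and dlx6.L no longer met the read minimum and were not tested. The median log2 fold change of the members was −0.61 with no filter, which adds genes with few reads, and −1.61 to −0.99 when 1 library was left out (−0.99 without the shallower TKD library).

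Library totals moved the median of all genes to 0.21 and the split of calls to 1983 lower and 2750 higher (41.9% lower), against 2438 and 1749 (58.2%) in the reported fit. Without the deeper TKD, shallower TKD, deeper control or shallower control library, 1722, 1733, 1961 or 2277 genes were lower and 877, 1123, 1015 or 1808 higher. Only values that missed the threshold changed sign. dlx6.L had 0.12 with library totals and −0.44 to 0.53 when 1 library was left out. dlx5.L ranged from −1.22 to 0.24 and krt8.2.S from −0.45 to 0.68 in this way. The log2 change of the L to S ratio ran from −0.47 to 0.20 for krt18 and from −5.16 to 0.32 for krt5.1-like.2. The cause of these changes of sign was not tested. No member pair passed the threshold for its L to S ratio under any alternative. Of all genes, 242 pairs passed with at least 50 reads and 55 with a pseudocount of 5.

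No paired analysis was possible because the columns of the table carry no replicate number. The difference between the deeper and the shallower library correlated at −0.505 between TKD and control, over 7319 genes with at least 50 reads in every library, so the deeper TKD library deviated with the shallower control library; no label ties these libraries, and they were not paired. Promoter motifs and levels per coding length were planned and not run, since no sequence table was at hand. Depth limits the values most in the shallower TKD library, with 1414476 reads.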
